A study of Mus musculus with 3 samples.

Results

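The genes followed here are 8 collagen genes of the mouse lung: Col1a1, Col1a2, Col3a1, Col5a1 and Col5a2, which code for chains of the fibrillar collagens I, III and V, and Col6a1, Col6a2 and Col6a3, which code for the chains of collagen VI. They were chosen by name, 8 of the 22954 genes listed for each cell. Their values were followed in all cells of 3 single-cell RNA-seq libraries, by cell class and by library. The libraries came from the lungs of 3 female C57BL/6J mice, all labelled wild type (WT), 1 mouse per condition. The thorax had received 13 Gy, and the lungs were taken 5 months later. The CONV mouse received conventional dose rate irradiation. The CONV AsiDNA mouse received the same irradiation together with AsiDNA. This drug consists of short paired DNA strands with a cholesterol group attached and looks to the cell like a DNA break. It was given at 100 mg/kg on the earlier days and at 200 mg/kg on the day of irradiation. The FLASH mouse received the dose at ultra-high dose rate. All 3 mice were irradiated, and the non-irradiated control libraries were not analysed here. Because each condition is 1 library of 1 mouse, a difference between mice and a difference between conditions cannot be told apart, and no p-value is given between libraries.

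Fibrillar collagens are secreted as triple-helical procollagens, trimmed outside the cell and packed into cross-linked fibrils. Collagen I is built from the products of Col1a1 and Col1a2, collagen III from that of Col3a1 alone, and collagen V, built mainly from the products of Col5a1 and Col5a2, is incorporated into collagen I fibrils and controls their width. Collagen VI is a trimer of the products of Col6a1, Col6a2 and, classically, Col6a3, and forms beaded microfibrils around cells and near basement membranes. In the lung, fibroblasts, the mural cells of vessels and airways and the mesothelium that covers the organ are known collagen producers, and excess fibrillar collagen is the hallmark of radiation-induced fibrosis.

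Some of these genes are neighbours in the genome. In the GENCODE vM21 annotation of GRCm38, Col1a1 lies at chr11:94936224-94953042, Col1a2 at chr6:4504814-4541544, Col5a1 at chr2:27886425-28039514 and Col6a3 at chr1:90765923-90843971. Col3a1 at chr1:45311538-45349706 and Col5a2 at chr1:45374321-45503282 lie side by side with 24614 bases between them. Col6a2 at chr10:76595762-76623630 and Col6a1 at chr10:76708792-76726168 are the other pair of neighbours, with 85161 bases between them. The RefSeq promoter table of GRCm38.p6 held 6 of the 8 genes. The stretches before the start sites of collagen I, III and VI genes are shown because the comparisons that follow turn on these chains. Each is the part of the 250 bases before the start that overlaps no annotated exon, read 5′ to 3′ on the gene's strand, with matches to TATAAA (the TATA box), to GGGCGG (the GC box) or to CCAAT on either strand in capitals. Col1a2 (chr6:4505370-4505492, plus strand), Col3a1 (chr1:45311288-45311537, plus strand), Col6a1 (chr10:76726169-76726294, minus strand), Col6a2 (chr10:76623631-76623880, minus strand) and Col6a3 (chr1:90843972-90844221, minus strand) read as follows.
Col1a2: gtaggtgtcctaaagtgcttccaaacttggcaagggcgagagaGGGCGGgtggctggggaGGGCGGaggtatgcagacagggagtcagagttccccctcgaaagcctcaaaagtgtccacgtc
Col3a1: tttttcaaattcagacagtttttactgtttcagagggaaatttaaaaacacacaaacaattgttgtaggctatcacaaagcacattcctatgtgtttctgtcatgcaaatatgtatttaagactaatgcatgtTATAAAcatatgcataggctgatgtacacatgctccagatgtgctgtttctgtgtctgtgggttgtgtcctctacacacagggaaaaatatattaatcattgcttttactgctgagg
Col6a1: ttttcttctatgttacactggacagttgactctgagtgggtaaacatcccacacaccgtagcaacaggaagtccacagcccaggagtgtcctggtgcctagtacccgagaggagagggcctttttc
Col6a2: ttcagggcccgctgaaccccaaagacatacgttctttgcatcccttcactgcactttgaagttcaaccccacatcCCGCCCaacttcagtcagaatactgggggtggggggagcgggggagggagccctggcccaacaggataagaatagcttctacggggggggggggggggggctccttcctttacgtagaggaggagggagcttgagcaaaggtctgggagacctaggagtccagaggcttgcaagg
Col6a3: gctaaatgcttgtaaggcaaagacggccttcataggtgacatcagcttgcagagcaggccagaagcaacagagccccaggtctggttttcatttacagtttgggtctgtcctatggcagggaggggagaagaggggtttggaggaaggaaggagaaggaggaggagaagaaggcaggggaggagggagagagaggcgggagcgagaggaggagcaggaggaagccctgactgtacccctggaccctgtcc

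The Col3a1 stretch held 1 TATAAA, the Col1a2 stretch 2 copies of GGGCGG and that of Col6a2 1 copy on the opposite strand, read as CCGCCC. The stretches of Col6a1 and Col6a3 held none of the 3 motifs. Over the whole 250 bases, Col1a2 also held 1 CCAAT within an annotated exon, a second Col6a2 start site held 3 copies of GGGCGG, and Col5a1, whose stretch is not printed, held 2. Over all 32851 promoters of the table, the 250 bases before the start held TATAAA in 12.4%, GGGCGG in 32.7% and CCAAT in 33.8%. A match is a description of the letters only.

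The libraries held 6372 cells (CONV), 6983 cells (CONV AsiDNA) and 6267 cells (FLASH), with a median of 3450, 3678 and 3621 adjusted counts per cell. An adjusted count is the whole number recovered from the deposited natural-log value. The sources used here do not give the step that altered its depth, so sums carry no counting intervals. A value of 0 did not show absence: Actb, the gene of a cytoskeletal actin found in every cell, was above 0 in only 38 of 65 fibroblast-like cells of CONV. The summed Actb level of these cells was 1251 adjusted counts per 1000000 counts (adjusted CPM) in the CONV library, 3504 in CONV AsiDNA and 3577 in FLASH, and what this does to the collagen values was not tested. Pairs of libraries shared 9 to 17 cell barcodes. Cells were assigned to a class by 12 marker panels of 10 genes, none of them one of the 8 collagens, and a class name with "-like" means this gate alone.

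The gate gave 348 fibroblast-like cells (65 in CONV, against 115 in CONV AsiDNA and 168 in FLASH), 182 mural-like cells (53, 72 and 57) and 106 mesothelial-like cells (22, 46 and 38). Fibroblast-like cells were split into 256 alveolar and 80 adventitial cells, with 12 unresolved. The smooth muscle genes Acta2 and Tagln were each above 0 in all but 1 of the mural-like cells, while the pericyte marker Higd1b was listed at 0 in all 182, and they are treated as 1 class. Of the fibroblast-like cells 7 had just the 3 panel genes required, as had 8 mural-like and 2 mesothelial-like cells.

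Most of the fibrillar collagen RNA of the libraries lay in fibroblast-like cells, although these made up only 1.77% of the cells. They held 81.6% of the 3329 Col1a1 counts, 77.1% of the 5997 Col1a2 counts and 75.4% of the 5094 Col3a1 counts. Mural-like cells held 9.97%, 8.82% and 14.3% of the same sums, and mesothelial-like cells 7.93%, 13.4% and 8.87%. The mesothelial Col1a2 share rested on CONV, where it was 34.6% beside 8.32% in mural-like cells, whereas in CONV AsiDNA and FLASH it was 3.41% and 5.76%, below the mural share of each. That of Col1a1 did too, at 23.5% beside 9.28% in mural-like cells in CONV, against 0.956% and 3.56% in CONV AsiDNA and FLASH. For Col3a1 the mesothelial share was above the mural one in CONV alone, at 11.2% beside 10.1%. The chains of collagen V were more widely spread. Fibroblast-like cells held 61.9% of Col5a1 and 54.5% of Col5a2, and endothelial-like cells held 7.85% of Col5a1 and 21.2% of Col5a2. Collagen VI was divided further. Col6a3 was found almost wholly in fibroblast-like (78.5%) and mural-like (19.2%) cells, whereas type 2 alveolar epithelial (AT2-like) cells held 42.4% of Col6a1 and 18.0% of Col6a2. The Col6a1 share was 50.6% in AT2-like against 32.5% in fibroblast-like cells in CONV and 41.6% against 39.0% in CONV AsiDNA, but 37.9% against 45.8% in FLASH, where the order turned. Such shares also depend on cell numbers, which were 65, 115 and 168 for fibroblast-like and 320, 393 and 402 for AT2-like cells. The Col6a1 level was 798, 749 and 734 adjusted CPM in fibroblast-like cells and 228, 206 and 216 in AT2-like cells. Among 14081 cells gated as immune, 6 of the 8 genes were above 0 in none, and Col5a1 and Col5a2 were each above 0 in 2 cells. Depth differed between these classes: AT2-like cells had a median of 4850, 4875 and 4812 adjusted counts in CONV, CONV AsiDNA and FLASH, macrophage-like cells 5046, 4615 and 4600, B-like cells 2830, 2965 and 3048 and neutrophil-like cells 2788, 2923 and 2946.

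**Figure D1:**
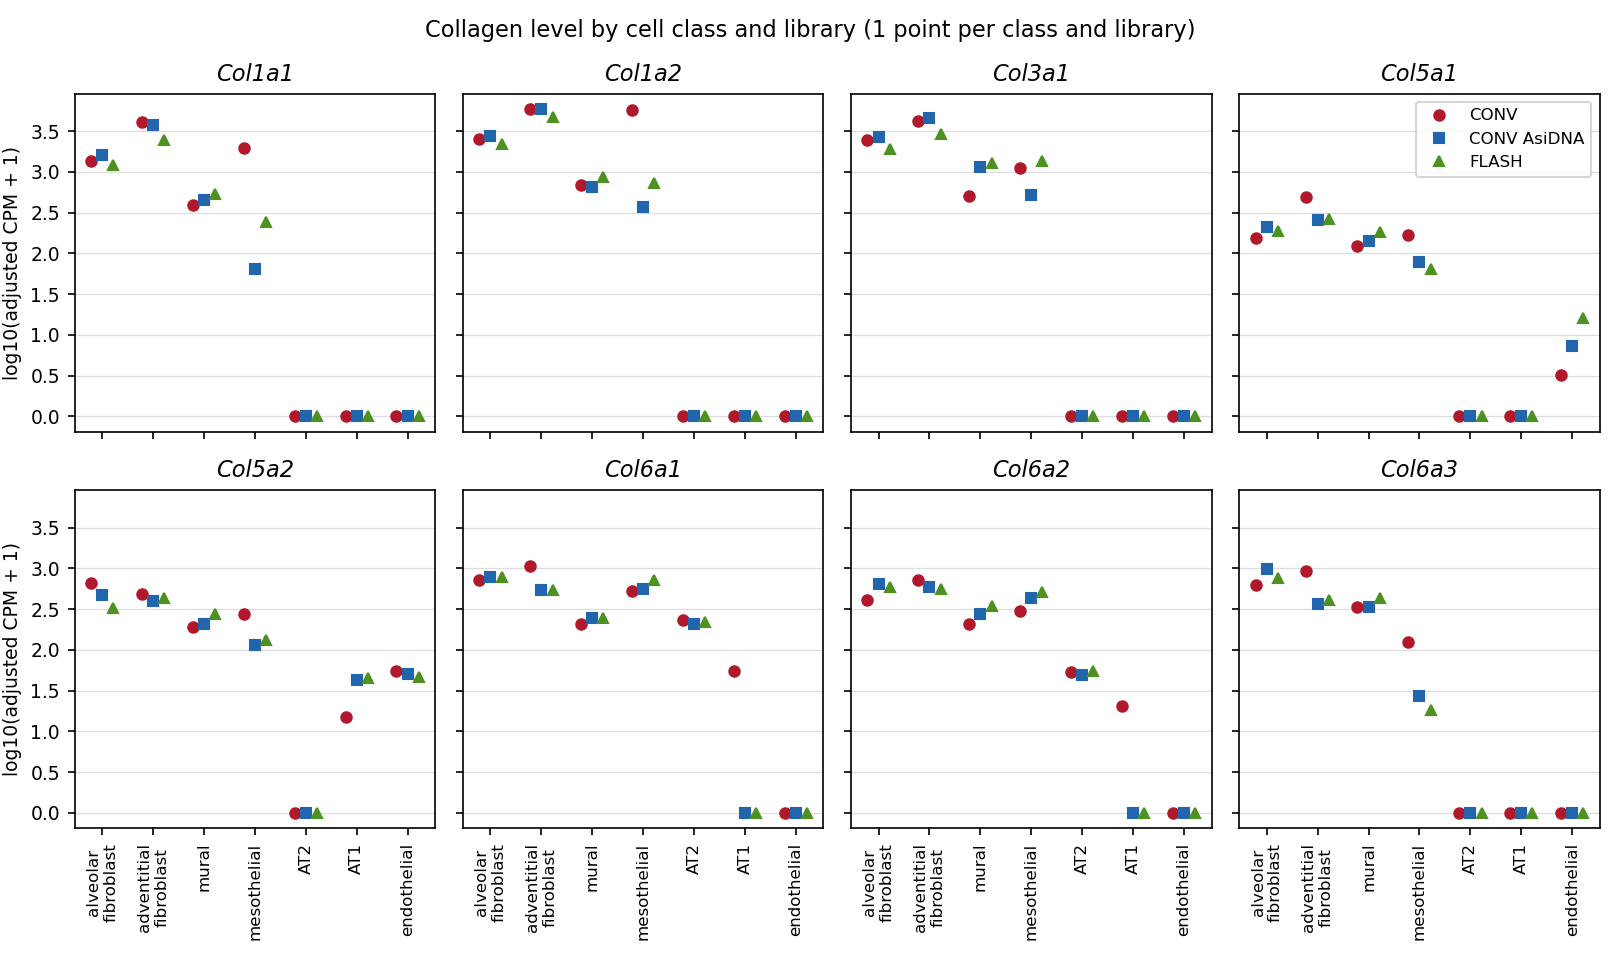
Level of each collagen gene, as log10 of adjusted CPM plus 1, in 7 cell classes, with 1 point per class and library (CONV circles, CONV AsiDNA squares, FLASH triangles) and no error, since a class has 1 value per library. Collagen I and III genes sit at 0 in AT2, AT1 and endothelial cells, Col6a1 and Col6a2 are above 0 in AT2 cells, and the CONV point of the mesothelial class lies far above the others for Col1a1 and Col1a2.

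Summed over cells, collagen I was highest in adventitial fibroblast-like cells, which in CONV rested on 2 of 18 cells. Col1a1 was at 4098 adjusted CPM in CONV, with 3748 in CONV AsiDNA and 2459 in FLASH in these cells, against 1354, 1631 and 1213 in alveolar fibroblast-like cells, and the ranges of the classes did not overlap. Col1a2 was at 5882, 5925 and 4729 adjusted CPM in adventitial cells and at 2515, 2765 and 2218 in alveolar cells, again without overlap. In mural-like cells Col1a1 was at 393, 449 and 532 and Col1a2 at 692, 647 and 873 adjusted CPM. Mesothelial-like cells had Col1a1 at 1977, 62.7 and 242 and Col1a2 at 5716, 366 and 725. Their Col1a2 level in CONV thus lay within the adventitial range. The adventitial levels of CONV without the 2 highest cells, 861 for Col1a1 and 2174 for Col1a2, lay below the CONV mesothelial values. In alveolar cells Col1a1 was above 0 in 97.7% of cells in the CONV library, 96.2% in CONV AsiDNA and 93.3% in FLASH, and Col1a2 in 100%, 97.4% and 97.0%, so nearly every alveolar fibroblast-like cell carried collagen I RNA in each library.

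The adventitial values of CONV rested on few cells. Of its 18 adventitial cells, 2 held 69.3% of the summed counts of the 8 genes, with 648 and 379 counts, while the next cell held 64 and the median cell 25. Elsewhere, the 2 highest cells of a stromal class and library held between 6.05% and 28.2%. The first of these cells held 58 of the 77 Col6a3 counts, 50 of the 88 Col6a1 counts, 26 of the 40 Col5a2 counts and 172 of the 348 Col3a1 counts of its class. The other held 144 of the 340 Col1a1 counts and 179 of the 488 Col1a2 counts. The adventitial marker panel summed to 5399 adjusted CPM in this class of CONV, 9604 in CONV AsiDNA and 10018 in FLASH, with all 8 markers above 0 in each library. In the same cells the alveolar panel summed to 1157, 3832 and 3768 and the mesothelial panel to 313, 7.66 and 31.5, and the part of these in the collagen values was not tested. Per cell, the median Col1a1 count of adventitial cells was 4 in CONV, against 12 in CONV AsiDNA and 6 in FLASH, and that of Col1a2 was 7, 21 and 12, beside 4, 5 and 4 for Col1a1 and 9, 9 and 8 for Col1a2 in alveolar cells. The median adventitial cell was therefore above the median alveolar cell in CONV AsiDNA and FLASH but not in CONV. Without the 2 highest cells of each class and library, the adventitial Col1a1 level was 861, 3087 and 1922 adjusted CPM against 1180, 1564 and 1165 in alveolar cells, and that of Col1a2 was 2174, 5129 and 3689 against 2207, 2627 and 2095, so in CONV both genes then lay lower in adventitial cells.

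**Figure D2:**
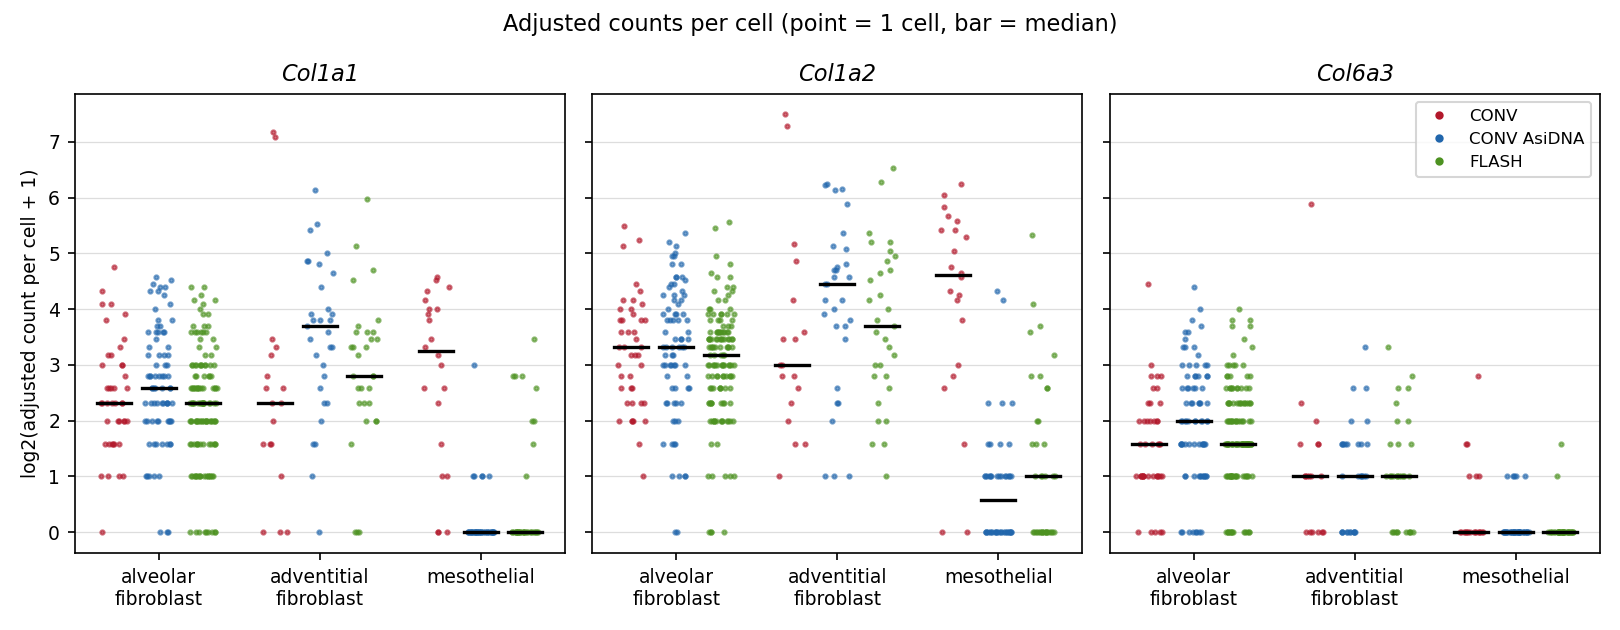
Adjusted counts per cell of Col1a1, Col1a2 and Col6a3, as log2 of the count plus 1, in alveolar, adventitial and mesothelial-like cells of the 3 libraries, with 1 point per cell and a bar at the median. In adventitial cells of CONV, 2 cells reach 135 and 144 Col1a1 counts and 1 cell reaches 58 Col6a3 counts, and most mesothelial-like cells of CONV carry Col1a1 while most of the other libraries are at 0.

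Collagen III and V were also compared between the fibroblast subtypes. Col3a1 was at 4194, 4530 and 2932 adjusted CPM in adventitial cells of CONV, CONV AsiDNA and FLASH and at 2446, 2649 and 1919 in alveolar cells. In mural-like cells Col3a1 was at 512 in CONV, with 1145 in CONV AsiDNA and 1298 in FLASH, and in mesothelial-like cells at 1130, 512 and 1346. Mural and mesothelial ranges overlapped, and both lay below the alveolar range. Col5a1 was at 494, 253 and 260 in adventitial cells, 155, 211 and 188 in alveolar cells, 123, 139 and 182 in mural-like cells and 170, 78.4 and 63.3 in mesothelial-like cells. Col5a2 was at 482, 391 and 434 in adventitial cells and at 653, 473 and 325 in alveolar cells, where the ranges overlapped, and at 189, 205 and 275 in mural-like cells. Outside the stroma, Col5a2 was above 0 in 13.6%, 13.2% and 9.92% of endothelial-like cells, at 54.6, 49.2 and 45.9 adjusted CPM. In type 1 alveolar epithelial (AT1-like) cells it was at 14.1, 42.1 and 44.2 adjusted CPM, in 1.67%, 6.85% and 7.69% of cells. Col5a1 was at 2.18, 6.37 and 14.9 adjusted CPM in endothelial-like cells, so its lowest stromal value lay above its highest endothelial value.

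The adventitial against alveolar difference was tested with limma on the 3 libraries as pairs, since both classes came from the same mice. At an adjusted p of 0.05 it called 217 of 7329 genes (2.96%) higher in adventitial cells and 307 lower, and 2 of the 8 collagens, both higher, with a median difference of 0.45 (log2) over the 8 and -0.08 over all genes tested. Col1a1 was higher in adventitial cells by 1.27 on the log2 scale (SE 0.25, limma adjusted p = 0.00998, higher in 3 of 3 libraries, adjusted p from 0.00284 to 0.484 over the alternatives). Col1a2 was higher by 1.14 (SE 0.26, limma adjusted p = 0.0177, 3 of 3 libraries, 0.00531 to 0.275 over the alternatives). Both calls were lost without the 2 cells highest in the collagens in each class and library, where the Col1a1 difference was 0.41 and that of Col1a2 0.58 and the direction in CONV turned, and also without the CONV AsiDNA library (limma adjusted p = 0.0532 and 0.082) or without the FLASH library (0.123 and 0.223), where the differences stayed as large at 1.30 to 1.39 for Col1a1 and 1.16 for Col1a2. The Col1a2 call alone was also lost with a pseudocount of 1, at a difference of 1.14 (limma adjusted p = 0.0541). Col3a1 (0.72, limma adjusted p = 0.121) and Col5a1 (0.77, 0.187) were not called. Col6a3 had a difference of -0.55 (limma adjusted p = 0.390) that was 0.57 in the CONV library, -1.38 in CONV AsiDNA and -0.86 in FLASH. Without the 2 highest cells it was lower in adventitial cells by 1.16 (limma adjusted p = 0.00959). Those cells were picked by the same 8 collagens and are a larger part of the smaller adventitial class. The p-values of that fit are therefore descriptions and not tests of the difference. Without the CONV library Col6a3 was called lower in adventitial cells by 1.12 (limma adjusted p = 0.0105). It was also called lower with a stricter gate, by 1.30 (limma adjusted p = 0.00472), and without cells with 3 panel genes of another class, by 1.31 (limma adjusted p = 0.00527). Col5a2, Col6a1 and Col6a2 differed by between -0.17 and 0.19 and were not called.

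Against mural-like cells, all fibroblast-like cells together were higher in 7 of the 8 collagens by limma, where 10.7% of the 8816 genes tested were called in this direction. The median difference was 1.30 over the 8 genes and -0.01 over all. The collagen I genes differed most, Col1a1 by 2.04 (SE 0.23, limma adjusted p = 0.000180, 1.52e-07 to 0.00578 over the alternatives) and Col1a2 by 2.12 (SE 0.23, limma adjusted p = 0.000131), each in 3 of 3 libraries. Col6a1 was higher by 1.68 (SE 0.19, limma adjusted p = 0.000191), whereas Col6a3 differed by 0.98 (SE 0.20, limma adjusted p = 0.00662), both in 3 of 3 libraries. Col3a1 was higher by 1.54, Col6a2 by 1.06 and Col5a2 by 0.99, with limma adjusted p of 0.00547, 0.00416 and 0.0194. Col5a1 was the exception at 0.59 (SE 0.22, limma adjusted p = 0.0985, 3 of 3 libraries). Without the CONV AsiDNA library, where 7.61% of 7677 genes were called higher, 4 of the collagens were called, and Col5a2, Col6a2 and Col6a3 were lost at differences of 0.94, 0.97 and 0.84 (limma adjusted p = 0.137, 0.0724 and 0.117).

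The chains of collagen VI did not keep one proportion between cell classes. The Col6a1 level of alveolar fibroblast-like cells (723, 786 and 779 adjusted CPM in CONV, CONV AsiDNA and FLASH) lay above that of mesothelial-like cells (518, 549 and 713) in each library, with ranges that came close without overlap, and the adventitial range (1061, 544 and 536) overlapped both. It was lower in mural-like cells (204, 247 and 244) and AT2-like cells (228, 206 and 216), whose ranges overlapped. Col6a2 was at 412, 637 and 583 in alveolar cells, 711, 582 and 552 in adventitial cells, 301, 429 and 512 in mesothelial-like cells, 204, 272 and 341 in mural-like cells and 53.0, 47.7 and 54.1 in AT2-like cells. Col6a3 was at 621, 970 and 750 in alveolar cells, 928, 368 and 410 in adventitial cells and 336, 334 and 430 in mural-like cells, but at 122, 26.1 and 17.3 in mesothelial-like cells and listed at 0 in every AT2-like cell.

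These proportions can be given as ratios of summed counts, which compare the same pair of genes between classes and not the genes with each other. The Col6a3 to Col6a1 ratio was 1.65, 1.35 and 1.76 in mural-like cells, 0.859, 1.23 and 0.963 in alveolar cells, 0.875, 0.676 and 0.765 in adventitial cells, 0.236, 0.0476 and 0.0242 in mesothelial-like cells and 0 in AT2-like cells. The Col6a2 to Col6a1 ratio was 1, 1.10 and 1.40 in mural-like cells, 0.570, 0.811 and 0.749 in alveolar cells, 0.670, 1.07 and 1.03 in adventitial cells, 0.582, 0.781 and 0.718 in mesothelial-like cells and 0.232, 0.232 and 0.25 in AT2-like cells. The adventitial range of the Col6a2 ratio overlapped the mural and the alveolar one. In CONV, 1 adventitial cell held 58 of the 77 Col6a3, 50 of the 88 Col6a1 and 29 of the 59 Col6a2 counts. Without the 2 highest cells, Col6a1, Col6a2 and Col6a3 summed to 31, 28 and 16 in adventitial cells of CONV. The Col6a3 ratio there was then lower and the Col6a2 ratio higher. With the 2 highest cells left out of each class and library, the adventitial range of the Col6a2 ratio no longer overlapped the alveolar one. The alveolar and mesothelial ranges overlapped for the Col6a2 ratio and were apart for that of Col6a3.

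In AT2-like cells, the surfactant-producing cells of the alveolus, Col6a1 was above 0 in 59.1% of 320 cells in CONV, 51.4% of 393 in CONV AsiDNA and 58.2% of 402 in FLASH. The shares of Col6a2 were 20%, 16.8% and 20.1%. Col6a2 was found mainly in the cells that also carried Col6a1: it was above 0 in 30.7%, 30.2% and 29.9% of these and in 4.58%, 2.62% and 6.55% of the AT2-like cells with Col6a1 at 0. Depth per cell could add to such a pairing, and its part was not tested. Thinned to 1000 counts per cell, the expected share of AT2-like cells with Col6a1 was 19.3%, 17.0% and 18.6%, and of those with Col6a2 4.90%, 4.13% and 4.91%. The other 6 collagens were listed at 0 in all AT2-like cells, and the fibroblast marker panel summed to between 27.8 and 56.2 adjusted CPM there, with 7 to 9 of its 10 genes at 0. The alveolar fibroblast panel summed to 1001, 1028 and 819 adjusted CPM in the same cells, nearly all of it Npnt, Limch1 and Ces1d, while Col13a1, Tcf21, Inmt and Itga8 were listed at 0. The part of either panel in the collagen VI values was not tested. In AT1-like cells, Col6a1 was at 53.5 and Col6a2 at 19.7 adjusted CPM in CONV, and both were listed at 0 in the other libraries. Between libraries, neither Col6a1 nor Col6a2 differed by 2-fold in AT2-like cells, where 4.38% of 8315 genes did for CONV against CONV AsiDNA, 5.21% for CONV against FLASH and 1.38% for CONV AsiDNA against FLASH.

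**Figure D3:**
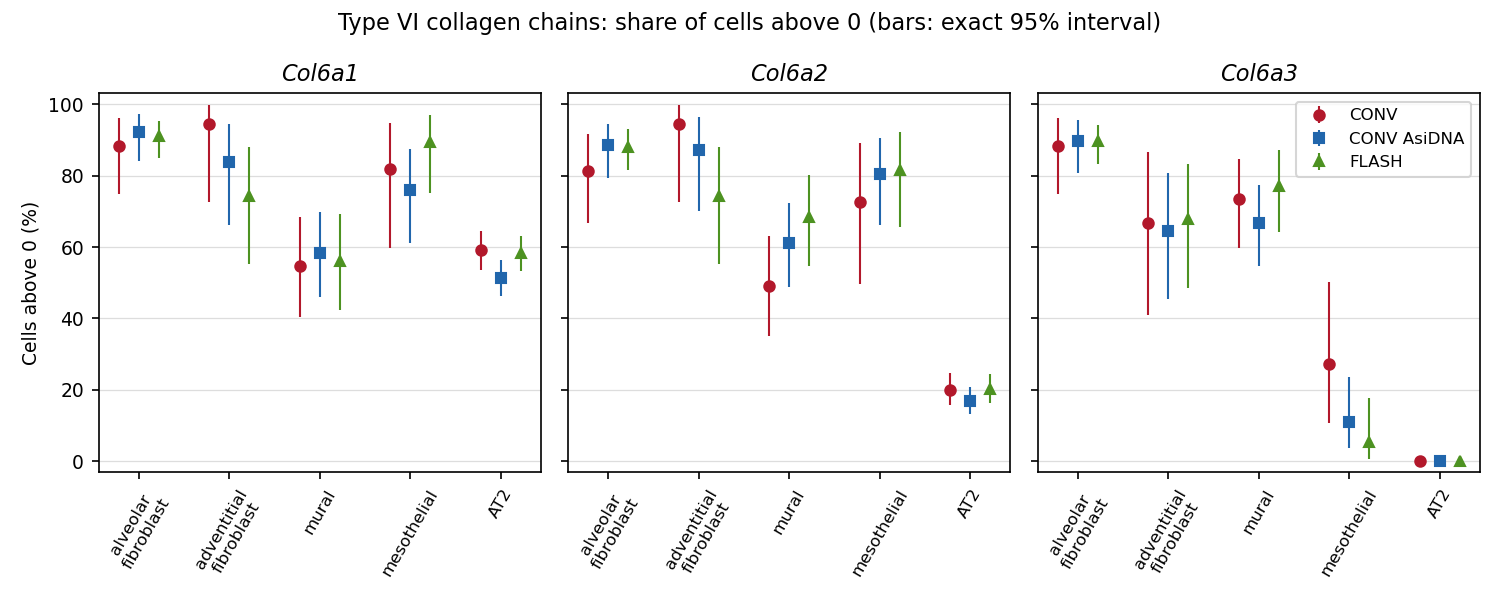
Share of cells above 0 for the 3 chains of collagen VI in 5 cell classes, with 1 point per library and exact 95% binomial intervals that cover counting of cells only. Col6a1 and Col6a2 are above 0 in most mesothelial-like cells and in part of the AT2-like cells, whereas Col6a3 falls to 27.3%, 10.9% and 5.26% in mesothelial-like cells and to 0 in AT2-like cells.

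Fibroblast-like cells were compared with mesothelial-like cells by the same limma test, which called 10.1% of 8672 genes and 3 of the 8 collagens higher in fibroblast-like cells, with a median difference of 1.44 over the 8 and 0.08 over all genes. Col6a3 was higher in fibroblast-like cells by 3.86 (SE 0.45, limma adjusted p = 0.000650, 3 of 3 libraries, at most 0.0176 over the alternatives). Col5a2 was higher by 1.41 (SE 0.28, limma adjusted p = 0.00956, 3 of 3) and Col5a1 by 1.16 (SE 0.30, limma adjusted p = 0.0312, 3 of 3). The Col5a1 call was lost with a stricter gate (0.94, limma adjusted p = 0.131) and without the 2 highest cells (0.92, 0.132). It was also lost with a pseudocount of 1 (1.25, 0.0508) and without the library as a block (1.16, 0.0509), where the difference stayed as large. Col3a1 was called without the block (limma adjusted p = 0.0337 against 0.0527). Col6a1 (0.37, limma adjusted p = 0.487) and Col6a2 (0.48, 0.319) were not called. The collagen I genes were not called either, and their libraries differed widely: the Col1a1 difference was 0.07 in CONV, against 4.95 in CONV AsiDNA and 2.56 in FLASH (2.53 in the fit, limma adjusted p = 0.0502, and called at 0.0494 with a minimum of 500 genes per cell, 0.0477 with median scaling and 0.000931 with no minimum sum), and that of Col1a2 was -0.75, 3.28 and 1.88 (1.47, limma adjusted p = 0.206). Without the CONV library, where 14.9% of 7840 genes were called higher in fibroblast-like cells, 6 of the 8 were, among them Col1a1 at 3.75 (limma adjusted p = 4.63e-05) and Col1a2 at 2.58 (0.000124). Without CONV AsiDNA or without FLASH 1 gene was called, Col6a3, where 9.12% and 4.61% of all genes were called higher. The differences of the genes lost stayed near those of the main fit. They were 1.19 and 1.46 for Col5a2 (limma adjusted p = 0.0960 and 0.103) and 1.02 and 0.98 for Col5a1 (0.149 and 0.252).

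Mesothelial-like cells of CONV carried collagen I RNA at a level that those of the other libraries did not reach. Col1a1 was at 1977 adjusted CPM in CONV, with 62.7 in CONV AsiDNA and 242 in FLASH, and was above 0 in 19 of 22, 6 of 46 and 9 of 38 cells. Col1a2 was at 5716, 366 and 725 adjusted CPM and above 0 in 20, 23 and 20 cells. The median cell had 8.5 Col1a1 counts and 23.5 Col1a2 counts in CONV, against 0 and 0.5 in CONV AsiDNA and 0 and 1 in FLASH. These 22 cells held 23.5% of all Col1a1 and 34.6% of all Col1a2 counts of the CONV library, whereas mesothelial-like cells held 0.956% and 3.41% in CONV AsiDNA and 3.56% and 5.76% in FLASH. Thinned to 1000 counts per cell, the expected share of cells with Col1a1 was 68.9%, 4.23% and 14.9%.

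In these cells 6 of the 8 collagens were at least 2-fold higher in CONV than in CONV AsiDNA on the log2 scale of adjusted CPM plus 10, where 11.6% of 4054 genes were as much higher. Against FLASH 4 were, beside 12.4% of genes. The log2 ratio over CONV AsiDNA and over FLASH was 4.77 and 2.98 for Col1a1, 3.93 and 2.96 for Col1a2, 1.87 and 2.28 for Col6a3, 1.02 and 1.29 for Col5a1 and 1.18 and 0.99 for Col5a2. Col3a1 stood apart with 1.13 over CONV AsiDNA and -0.25 over FLASH, its highest library being FLASH. Col6a1 (-0.08 and -0.45) and Col6a2 (-0.50 and -0.75) were not higher in CONV. The Col5a1 ratio over CONV AsiDNA was 0.98 with a looser gate and 0.96 when taken as a mean over cells. That of Col5a2 over FLASH passed 2-fold with a stricter gate (1.05), a pseudocount of 1 (1.04), median scaling (1.11) and without the 2 highest cells (1.22). Between CONV AsiDNA and FLASH, Col1a1 (-1.79) and Col3a1 (-1.38) were lower in CONV AsiDNA by over 2-fold, where 4.19% of genes were as much lower. The median over all genes was -0.13, -0.12 and -0.03 for the 3 pairs.

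Marker panels of mesothelial and of other cells also differed between the libraries in these cells, in both directions. The mesothelial panel summed to 8513 adjusted CPM in the CONV library, 14547 in CONV AsiDNA and 17588 in FLASH, with all 10 genes above 0 in each. Msln was at 1554, 3514 and 3687, Upk3b at 1394, 3096 and 3549, and Muc16, a mesothelial surface mucin, was above 0 in 7 of 22, 41 of 46 and 37 of 38 cells. The mural panel summed to 669, 20.9 and 11.5 adjusted CPM, with Tagln and Acta2 above 0 in 4 CONV cells each and in none of the others. The pericyte panel was also highest in CONV, at 405, 162 and 242. The alveolar fibroblast panel (358, 1098 and 851) and the endothelial panel (386, 695 and 1087) were lowest in CONV. The adventitial panel summed to 725, 627 and 828. The fibroblast panel summed to 9953, 13192 and 15287, most of it Dcn and Gpc3, and its other members were few: Inmt, Mfap4, Tcf21 and Dpt were listed at 0 in the CONV cells, and Pdgfra was above 0 in 9 of 22 CONV cells and in none of the others. Cells with 3 or more panel genes of another class made up 17 of the 22 cells in CONV, 27 of 46 in CONV AsiDNA and 26 of 38 in FLASH. In CONV these were fibroblast panel genes in 16 cells and mural panel genes in 3, whereas in CONV AsiDNA 17 cells had fibroblast and 18 had AT1 panel genes, and in FLASH 18 and 18, a cell counting for each such panel. The 5 CONV cells left without them, too few for a ratio, all had Col1a1 above 0, at 1698 adjusted CPM, against 2 of 19 cells at 30.1 in CONV AsiDNA and 3 of 12 cells at 364 in FLASH. Of the 19 CONV cells with Col1a1, 17 had 5 or more mesothelial panel genes. Fn1, the gene of the matrix protein fibronectin, was at 1215 adjusted CPM in CONV and listed at 0 in the other libraries. The part of the marker differences in the collagen values was not tested.

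Other genes of collagen assembly in the mesothelial-like cells moved in both directions. Of 29 tested genes of a 56-gene list, 7 were at least 2-fold higher and 3 lower in CONV than in CONV AsiDNA, and 5 were higher and 4 lower than in FLASH. Of all 4054 genes tested, 11.6% were as much higher and 18.4% lower than in CONV AsiDNA, and 12.4% higher and 18.9% lower than in FLASH. The list had a median of 0.14 and 0.18. Lox, which starts collagen cross-linking, was at 254 adjusted CPM in CONV, against 31.4 in CONV AsiDNA and 0 in FLASH. Sparc, a collagen-binding matricellular protein, was at 3343, 946 and 1294, and Timp3, an inhibitor of matrix proteases, at 753, 335 and 322. Col6a5 and Col6a6, whose chains can take the place of that of Col6a3 in collagen VI, were at 198 and 207 adjusted CPM in CONV and listed at 0 in the others. In the other direction, Pcolce, which enhances procollagen trimming, was at 311, 852 and 897, and Ogn, a small leucine-rich proteoglycan, at 405, 1103 and 1639. These genes were picked after their values were seen, as those past 2-fold in CONV against both other libraries.

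In fibroblast-like cells as a whole, none of the 8 collagens differed by 2-fold between any pair of libraries, where 10.2% of 7463 genes did between CONV and CONV AsiDNA, 11.7% between CONV and FLASH and 5.59% between CONV AsiDNA and FLASH. Col1a1 was at 2081 adjusted CPM in CONV, with 2242 in CONV AsiDNA and 1470 in FLASH, Col1a2 at 3398, 3641 and 2693, and Col3a1 at 2865, 3148 and 2130. Each of the 8 was higher in CONV AsiDNA than in FLASH, with log2 ratios from 0.03 to 0.61 and a median of 0.29, beside a median of -0.0047 over all genes. Alveolar cells made up 78 of 115 and 135 of 168 of these cells, the alveolar panel summed to 11612 and 16879 adjusted CPM and the adventitial panel to 5306 and 3944, and the part of this mix was not tested. Within alveolar cells 8 of 8 were higher, with a median of 0.34, and within adventitial cells 5 of 8, with a median of 0.049. The median of the 8 was -0.10 for CONV against CONV AsiDNA and 0.31 against FLASH. These values of CONV rested in part on the 2 adventitial cells, which held 279 of its 597 Col1a1 counts. Without the 2 highest cells of each library, Col1a1 was at 1157, 2049 and 1364 adjusted CPM and Col1a2 at 2333, 3401 and 2486, so both then lay below FLASH in CONV. The median of the 8 became -0.50 against CONV AsiDNA, with 7 of 8 lower in CONV, and -0.23 against FLASH, with 6 of 8 lower, while all 8 remained higher in CONV AsiDNA than in FLASH. The cells left out were picked by these 8 genes, and 2 cells are a larger part of the 65 in CONV than of 115 or 168. How much of the fall in CONV follows from this choice was not tested. The share of all genes lower in CONV is not given for this setting, so these counts cannot be set against it.

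Within the subtypes, the alveolar cells had no collagen past 2-fold in any pair, where 15.2%, 14.6% and 6.36% of 6350 genes passed. The Col5a2 ratio of CONV over FLASH, 0.99, was the nearest to it and passed it in 5 alternatives, at 1.00 to 1.07, and this gene was above 0 in 88.4% of alveolar cells in the CONV library, 84.6% in CONV AsiDNA and 69.6% in FLASH. In adventitial cells Col6a3 alone passed 2-fold, at 1.31 for CONV against CONV AsiDNA and 1.16 against FLASH, where 7.64% and 8.79% of 2855 genes were as much higher. This rested on the 1 cell with 58 Col6a3 counts. Without the 2 highest cells of each class and library the ratios were -0.68 and -0.68, and the share of all adventitial cells with Col6a3 was 66.7% in CONV, against 64.5% in CONV AsiDNA and 67.7% in FLASH. Other collagens passed 2-fold in the opposite direction in some alternatives. The Col3a1 ratio of CONV over CONV AsiDNA, -0.11, was -1.44 with a stricter gate, -1.46 without cells with 3 panel genes of another class and -1.53 with Leiden clusters, and that of Col1a2 was -1.23 without the 2 highest cells. In that alternative Col1a1 moved to -1.83 over CONV AsiDNA and -1.15 over FLASH, and Col5a2 was at -1.25 and -1.29. The Col5a2 ratios were also past 2-fold lower in CONV with the stricter gate, without cells with 3 panel genes of another class and with Leiden clusters, at -1.11 to -1.46. Scaled by the median gene ratio, Col5a1 (1.02 over CONV AsiDNA) and Col6a1 (1.03 over each) passed it upwards. Between CONV AsiDNA and FLASH, where 11.0% of genes passed in either direction, no collagen did.

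In mural-like cells Col3a1 was the only collagen past 2-fold, and it was lower in CONV. Its log2 ratio was -1.15 over CONV AsiDNA and -1.33 over FLASH, where 5.78% and 5.75% of 5360 genes were as much lower. Between CONV AsiDNA and FLASH no collagen passed it, where 7.56% of genes did in either direction. It was above 0 in 69.8% of cells in CONV, with 84.7% in CONV AsiDNA and 86.0% in FLASH. The fibroblast panel summed to 275, 491 and 797 adjusted CPM in these cells and the adventitial panel to 133, 522 and 735, so both were also lowest in CONV. The smooth muscle panel was lower in CONV as well, at 42330, 57858 and 56800, whereas the alveolar fibroblast panel (2075, 1486 and 1670) and the pericyte panel (1634, 916 and 1072) were highest there, and their part in the Col3a1 values was not tested. With the mural class taken from Leiden clusters of the cells, the Col3a1 ratios were 0.16 and 0.046, and that of Col1a1 over CONV AsiDNA was 1.00. In endothelial-like cells Col5a1 was lower in CONV than in FLASH with a log2 ratio of -1.03, from 3 and 27 counts, where 3.37% of 10357 genes were as much lower, and Col5a2 differed by 0.08 to 0.21 over the pairs. No collagen passed 2-fold there for CONV against CONV AsiDNA or for CONV AsiDNA against FLASH, where 7.23% and 1.26% of genes did. The endothelial panel was also lower in CONV, at 16834, 21765 and 22272 adjusted CPM, and the libraries filled different endothelial clusters, 1 of them with 134 CONV, 24 CONV AsiDNA and 1 FLASH cells and another with 57, 169 and 181. The part of these in the Col5a1 value was not tested.

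**Figure D4:**
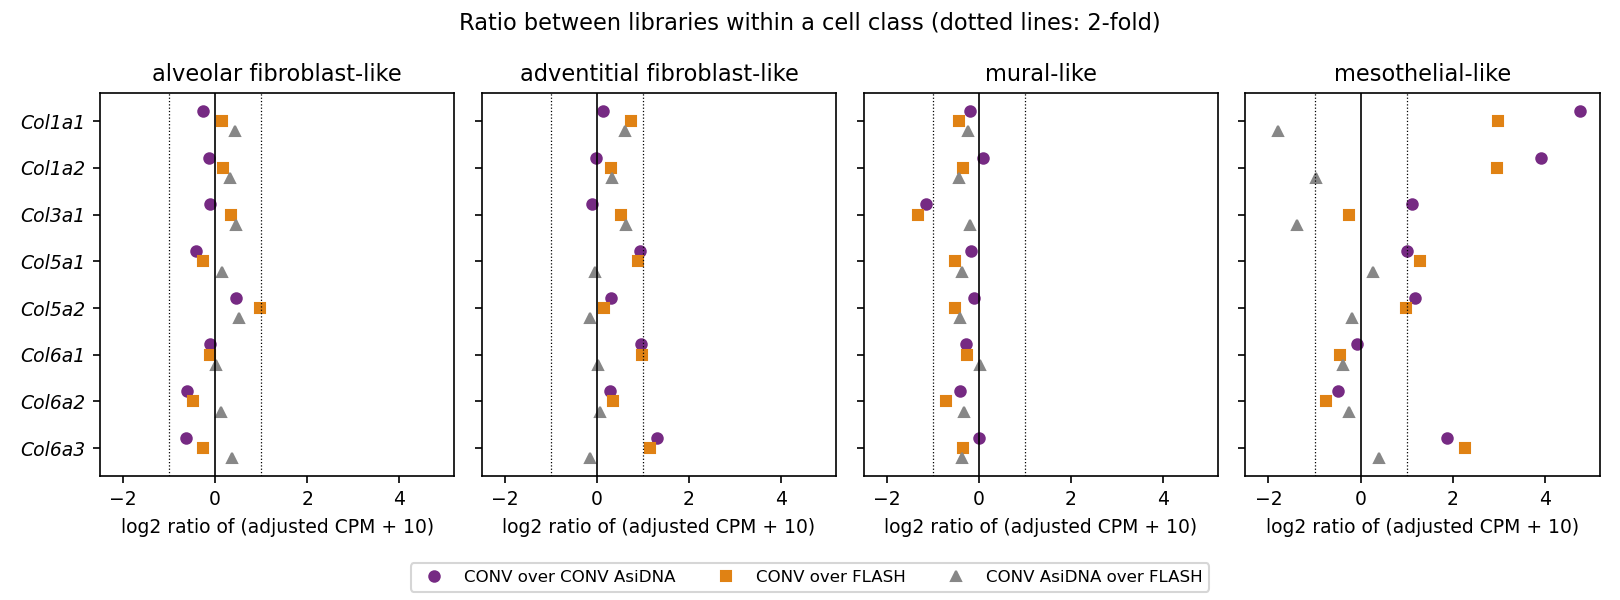
Log2 ratio of adjusted CPM plus 10 between libraries for each collagen in 4 stromal classes, with 1 point per pair of libraries, dotted lines at 2-fold and no error, since each library is 1 mouse. Alveolar points stay within 2-fold, Col6a3 in adventitial and Col3a1 in mural cells pass it, and mesothelial points reach 4.77 for Col1a1 and 3.93 for Col1a2.

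The ratio of the collagen III to the collagen I chain differed between the fibroblast subtypes. Col3a1 over Col1a1, as summed counts, was 1.81, 1.62 and 1.58 in alveolar cells of CONV, CONV AsiDNA and FLASH and 1.02, 1.21 and 1.19 in adventitial cells, without overlap. Without the 2 highest cells of each class and library it was 1.81, 1.58 and 1.55 in alveolar cells and 2.26, 1.24 and 1.33 in adventitial cells, so the direction turned in CONV. In mural-like cells it was 1.30, 2.55 and 2.44. In mesothelial-like cells it was 0.571 in CONV and 5.57 in FLASH, and it is not given for CONV AsiDNA, where Col1a1 summed to 12 counts, under the 20 required, and Col3a1 to 98. Col1a2 over Col1a1 was 1.86, 1.70 and 1.83 in alveolar cells, 1.44, 1.58 and 1.92 in adventitial cells and 1.76, 1.44 and 1.64 in mural-like cells, where the ranges overlapped, and 2.89 and 3 in mesothelial-like cells of CONV and FLASH. Without the 2 highest cells it was 1.87, 1.68 and 1.80 in alveolar cells and 2.52, 1.66 and 1.92 in adventitial cells. The adventitial value of CONV thus went from the lowest to the highest of its class.

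Across single fibroblast-like cells, the levels of the 2 genes of the collagen I trimer went together. Spearman's rho of Col1a1 with Col1a2 was 0.589 over 65 cells of CONV, 0.794 over 115 of CONV AsiDNA and 0.668 over 168 of FLASH, and that of Col1a1 with Col3a1 was 0.638, 0.682 and 0.635. Col6a1 with Col6a2 gave 0.454, 0.453 and 0.461 and Col6a1 with Col6a3 0.560, 0.570 and 0.338. The genes of collagen V were the least alike of all pairs of the 8 genes, with 0.109, 0.109 and 0.0592 for Col5a1 with Col5a2, both of them low in count. Col5a2 gave 0.469, 0.398 and 0.501 with its neighbour Col3a1. Cells of a library share its depth and subtype make-up, so these values are descriptions without a test.

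Of the 56 genes of collagen synthesis, processing, fibril association, degradation and binding, 42 could be tested in fibroblast-like cells. In CONV, 7 were at least 2-fold higher and 1 lower than in CONV AsiDNA, where 5.45% of all genes were higher and 4.74% lower. Against FLASH 9 were higher, beside 6.57% of all genes, and none lower, while 1 was higher in CONV AsiDNA than in FLASH, beside 3.35%. The list median was 0.09, 0.26 and 0.17 for these pairs, beside 0.01, -0.0017 and -0.0047 over all genes. None of 13 genes for folding in the endoplasmic reticulum was at least 2-fold higher in CONV. Their median log2 ratio was 0.16 over CONV AsiDNA and 0.34 over FLASH. Serpinh1, the collagen chaperone HSP47, was the 1 gene at least 2-fold lower in CONV, against CONV AsiDNA. It was at 498 adjusted CPM in the CONV library, 1059 in CONV AsiDNA and 729 in FLASH. Genes of degradation and rarer chains were among those with high ratios: Timp1, a protease inhibitor, was at 1258, 303 and 165 adjusted CPM, Col5a3, the third chain gene of collagen V, at 171, 46.8 and 20.2, and Mmp13, a collagenase, at 143 in CONV and listed at 0 in the others. These again came from the adventitial cell of CONV with the most collagen, which held 312 of 361 Timp1 counts, 41 of 49 Col5a3 counts and 41 of 41 Mmp13 counts. Without the 2 highest cells of each class and library, the ratios of Timp1 were -0.81 and -0.02 and those of Col5a3 -0.56 and 0.36.

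The other named genes of the list kept ratios above 2-fold without those cells. Fmod, a proteoglycan that binds collagen I fibrils, was at 268, 124 and 117 adjusted CPM, with ratios of 1.07 and 1.09 without the highest cells. Itga1, the alpha chain of a collagen receptor, was at 83.6, 26.5 and 20.2, and its ratios were then 1.40 and 1.67. Col6a5 was at 48.8, 10.2 and 2.89 and came from 3 cells in CONV. Ddr1, a collagen-binding receptor kinase that the naming rule left out, was at 90.6, 16.3 and 23.1 and above 0 in 22 of 65, 8 of 115 and 16 of 168 cells, with ratios of 1.93 and 1.66 without the highest cells.

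Between the fibroblast subtypes, 3 of 42 tested genes of the list were called higher in adventitial cells and 3 lower by limma, beside 2.96% and 4.19% of all genes, with a list median of 0.28 beside -0.08 over all genes. Lum, the fibril-spacing proteoglycan lumican, was higher by 4.79 (SE 0.34, limma adjusted p = 1.45e-05, 3 of 3 libraries), and Timp1 by 2.64 (SE 0.52, limma adjusted p = 0.00869, 3 of 3). The Timp1 difference was 4.59 in CONV, against 0.76 in CONV AsiDNA and 2.56 in FLASH. In CONV, 1 adventitial cell held 312 of the 361 Timp1 counts of fibroblast-like cells, and its part in this call was not tested. Mmp13 had a difference of 1.89 (limma adjusted p = 0.285) that came from CONV alone. Lower in adventitial cells in 3 of 3 libraries were Lox by 1.64 (SE 0.26, limma adjusted p = 0.00262), Mrc2, a receptor for collagen uptake, by 1.49 (SE 0.26, limma adjusted p = 0.00482), and Ogn by 1.02 (SE 0.26, limma adjusted p = 0.0358).

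Over all 39 combinations of class and library, the genes whose log2 level was most like the mean of the 8 collagens were Loxl1 (Pearson's r = 0.988), Col16a1 (0.985), Fgf2 (0.982), Ddr2 (0.979) and Fxyd1 (0.979). These points share libraries and fall into stromal and other classes, so r is given as a description. Of the 8 collagens themselves, Col3a1 was nearest to their mean (0.993) and Col6a1 farthest (0.913).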

How the data were processed

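Single-cell 3′ libraries (10x Genomics) of 3 mouse lungs were analysed, 1 per condition. The values the authors deposited are natural logs, per gene and cell, of a whole number plus 1. The submitters' processing notes name Cell Ranger 6.0.0 and mm10, and the study's methods R and Seurat. Neither names the step that adjusted the depth, so no count model was used and the values were converted back to adjusted counts, each within 1e-06 of a whole number. The plan had left room for raw counts.

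Cells with at least 200 genes and at most 20% mitochondrial counts were kept (19619 cells). A cell took the class with the most of its 10 panel genes above 0, if at least 3 and more than any other class. Fibroblast-like cells were split by panels of 8 genes. No doublet caller was run, and an alternative left out cells with 3 panel genes of another class. Counts were summed per class and library with at least 10 cells and scaled to 1000000 (adjusted CPM). Ratios used adjusted CPM plus 10, and a gene counted as past 2-fold if its sum over the libraries was at least 20. Classes were compared with limma 3.58.1 (R 4.3.3, trend) on log2 values, with the library as a block because both classes came from the same mouse, and Benjamini-Hochberg adjustment over all genes tested. Fold changes on this scale are understated for low genes. Intervals on shares are exact Clopper-Pearson intervals at 95% and cover counting of cells only. Scripts were tested on simulated data. Python 3.11.15 and scanpy 1.11.5 (2000 variable genes, 30 components, 15 neighbours, resolution 1) gave the Leiden classes.

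Besides the 8 collagens, genes of the 56-gene list were named if they passed 2-fold the same way in CONV against both other libraries in fibroblast-like cells (the 3 highest and 3 lowest where more than 6 did), or were among the 3 with the largest difference each way between the fibroblast subtypes, and the 5 genes most like the mean of the collagens. Other genes were named after their values were seen. The collagens, panels and lists were chosen with earlier results of these data known. The 12 columns of per-sample values in 4 other tables were not used.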

Additional observations from a re-analysis of the deposited data

Results flagged for a closer look

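Col3a1 moved in opposite directions in 2 stromal classes. Its log2 ratio of CONV over CONV AsiDNA was 1.13 in mesothelial-like cells and -1.15 in mural-like cells, but 0.16 in the mural class of Leiden clusters. Col5a1 moved in opposite directions in a stromal class and in endothelial-like cells, with a log2 ratio of CONV over FLASH of 1.29 in mesothelial-like cells and -1.03 in endothelial-like cells, whose cells fell into different clusters in the libraries. Each is the value of 1 mouse against 1 mouse, and the difference between the classes was not tested.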

How the results depend on the processing

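The 1 mouse per condition, the small classes (18 adventitial and 22 mesothelial-like cells in CONV) and the unstated depth adjustment limit these values, and the cause of a change was not tested unless named. The Col6a3 ratios of adventitial cells, 1.31 and 1.16, turned to -0.86 and -1.07 with a stricter gate, to -0.93 and -1.05 without cells with 3 panel genes of another class, to -1.05 and -0.95 with Leiden clusters, and to -0.68 and -0.68 without the 2 highest cells, an alternative chosen after seeing the data. In these 4 alternatives the Col5a2 ratios were -1.26 and -1.46, -1.12 and -1.25, -1.11 and -1.35, and -1.25 and -1.29, and without the 2 highest cells those of Col1a1 were -1.83 and -1.15. With Leiden clusters, the mural-like ratios were 0.16 and 0.046 for Col3a1 and 1.00 for Col1a1 over CONV AsiDNA. In mesothelial-like cells, the number of collagens past 2-fold became 5 for CONV AsiDNA over FLASH without cells with 3 panel genes of another class (which left too few CONV cells for a value), 2 for CONV over FLASH with a minimum sum of 50, and 3 for CONV over CONV AsiDNA without the few cells with Inmt, Mfap4, Tcf21, Dpt, Olfml3 or Serpinf1, where Col5a1 (0.96) and Col5a2 (0.92) fell just short and Col6a3 was no longer tested. The share of all genes past 2-fold is not given for these settings, so these counts cannot be set against it. Thinned to 1000 counts, the shares with Col1a1 were 59.6%, 74.6% and 64.2% in fibroblast-like cells and 4.23% in mesothelial-like cells of CONV AsiDNA.

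For adventitial against alveolar cells, 1 collagen was called with a pseudocount of 1, Col1a1, higher in adventitial cells. There 1.83% of all genes were called higher and 2.69% lower. Without the 2 highest cells the 1 call was Col6a3, lower in adventitial cells, where 3.35% of all genes were called higher and 4.84% lower. The cells left out there were picked by the 8 collagens themselves, so this call is a description only. The Col6a2 difference became -0.083 with the stricter gate, -0.10 without cells with 3 panel genes of another class, -0.10 without the 2 highest cells and -0.18 when Col13a1 alone split the cells. Leaving out 1 library gave 0 to 3 calls, -0.10 to 0.35 for Col6a2, -0.35 to 0.068 for Col5a2 and -0.53 to 0.013 for Col6a1. In these fits 1.05% to 3.98% of all genes were called higher in adventitial cells and 1.61% to 5.55% lower. Leaving out 1 library gave 4 to 7 calls against mural-like cells, where 7.61% to 13.4% of all genes were called higher. It gave 1 to 6 against mesothelial-like cells, where 4.61% to 14.9% were. Against mesothelial-like cells, 5 were called without cells with 3 panel genes of another class, which also dropped the CONV library, and 5 with no minimum sum, where 10.6% and 6.46% of all genes were called higher. Without the library as a replicate block, 372, 1406 and 1561 genes were called instead of 524, 1707 and 1587, and 2, 7 and 3 collagens as before, with the exchange of Col5a1 for Col3a1 given above.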
